A study of Mus musculus with 8 samples.

Results

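Transcripts of 5 genes that act at the receiving side of hippocampal synapses were followed in control and Jade2-knockout mice. They are Grik4 and Gabbr1 (neurotransmitter receptor subunits), Dlgap1 (a scaffold protein), and Camk2b and Prkacb (protein kinase subunits). The samples were hippocampi of C57BL/6 mice aged 8 weeks, 4 libraries from wild-type controls and 4 from Jade2 knockouts. Jade2 is a chromatin protein that works with the acetyltransferase HBO1. The labels do not give the design of the knockout allele, the sex of the mice, or whether each library came from its own animal, so spreads given here are between libraries and may be technical.

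Members were the rows of the deposited transcript table that carry one of the 5 gene names, together with unnamed models of the same loci and of the Grik4 locus. This gave 5 of 1679 transcripts, 1 for each gene, of which 4 have an Ensembl identifier and 1, at Grik4, is an unnamed merged model. The table itself is a selection. Every row has an unadjusted p of at most 0.0498 in the authors' deposited table, and its log2 fold change between knockout and control is 1.00 or more in size. The adjusted p-values imply 104721 transcripts in all, so 1.60% were listed. The difference between the groups therefore chose the members and is described below without a test. Transcripts just outside those limits, and the other isoforms of these genes, were not analysed here, so no gene total can be given.

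Fast excitation in the hippocampus runs through ionotropic glutamate receptors, among them kainate receptors, while GABA acting on the metabotropic GABA-B receptor gives slow inhibition. Beneath excitatory synapses lies the postsynaptic density, where DLGAP proteins link the PSD-95 family to Shank proteins. The calcium/calmodulin-dependent kinase CaMKII and the cyclic AMP-dependent protein kinase A act there in synaptic plasticity. Each of these genes has more than 1 annotated isoform, and the values below belong to the listed isoform alone.

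The isoforms were compared with the GENCODE M21 annotation of GRCm38, the assembly also called mm10. It holds 56 transcripts of the 5 genes, and 4 of them were listed. All 4 have the same position in the deposited table and in the annotation. For Camk2b, ENSMUST00000090443 (isoform Camk2b-204, chr11:5969672-6065748, minus strand) is 1 of 10 protein-coding models, with 20 exons and 545 codons. These models differ mainly in a run of exons that encodes the variable linker between the kinase part and the association part of the protein. Camk2b-204 lacks coding exons of 75 and 45 bases that Camk2b-209 holds, and it has a coding exon of 129 bases that 2 of the other 9 coding isoforms share. The sequences of the exons of 75 and 45 bases, which the listed isoform lacks, are shown with the exon in capitals and 12 bases of each neighbouring exon in lower case, for chr11:5987057-5987131 and chr11:5981070-5981114 in that order.
Camk2b-209, exon of 75 bases absent from the listed isoform: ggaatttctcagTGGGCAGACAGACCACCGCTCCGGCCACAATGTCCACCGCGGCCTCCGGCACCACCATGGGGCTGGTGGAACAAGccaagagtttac
Camk2b-209, exon of 45 bases absent from the listed isoform: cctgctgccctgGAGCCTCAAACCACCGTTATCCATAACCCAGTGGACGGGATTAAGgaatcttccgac

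Prkacb encodes a catalytic subunit of protein kinase A, and alternative first exons give it different amino-terminal ends. The listed ENSMUST00000106138 (Prkacb-204, chr3:146729865-146770781, minus strand) has 10 exons and 339 codons. Its first coding exon, at chr3:146770516-146770525, holds 10 coding bases that none of the other 5 coding isoforms shares. The remaining 1007 coding bases are the same as in Prkacb-201, Prkacb-202 and Prkacb-203. The starts of these coding sequences are shown with the first exon in capitals and the first 20 bases of the common next exon in lower case.
Prkacb-204, listed: ATGGGCTTGTtgaaagagtttctagccaaa
Prkacb-203: ATGAATGtgaaagagtttctagccaaa
Prkacb-202: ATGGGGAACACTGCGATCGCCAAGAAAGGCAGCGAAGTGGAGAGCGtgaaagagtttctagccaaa
Prkacb-201: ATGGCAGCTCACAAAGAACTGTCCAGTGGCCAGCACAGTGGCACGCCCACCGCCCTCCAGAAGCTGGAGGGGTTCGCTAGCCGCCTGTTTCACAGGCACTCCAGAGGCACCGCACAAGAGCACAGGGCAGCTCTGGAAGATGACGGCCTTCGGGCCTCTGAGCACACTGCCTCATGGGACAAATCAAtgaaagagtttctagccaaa

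For Gabbr1, the listed ENSMUST00000173823 (Gabbr1-205, chr17:37046020-37074290, plus strand) is annotated not as a coding messenger but as a target of nonsense-mediated decay, the pathway that degrades messengers with an early stop codon. Of the 1136 listed transcripts found in the annotation, 86 (7.57%) carry that class, against 5.07% of all 141767 annotated transcripts. The share among the transcripts quantified in these libraries is unknown, so an enrichment of the class was not tested. Gabbr1-205 begins near the start of the long coding isoform Gabbr1-201, which encodes 960 codons, whereas the annotated reading frame of Gabbr1-205 ends after 177. It skips coding exons of 186 bases (chr17:37048421-37048606) and 151 bases (chr17:37067214-37067364) that Gabbr1-201 has. In place of an exon of 21 bases it has a longer form of 145 bases (chr17:37049653-37049797). Its stop codon, TAA, lies 1962 bases before the last exon junction, with 16 junctions after it. The lengthened exon is shown with the bases shared with Gabbr1-201 in capitals, the skipped exon of 186 bases in capitals between its neighbours, and the last coding stretch (chr17:37050999-37051101) with its stop codon in capitals.
Gabbr1-205, lengthened exon: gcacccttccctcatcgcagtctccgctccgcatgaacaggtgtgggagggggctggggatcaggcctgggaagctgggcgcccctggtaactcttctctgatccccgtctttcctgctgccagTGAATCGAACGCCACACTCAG
Gabbr1-201, exon absent from the listed isoform: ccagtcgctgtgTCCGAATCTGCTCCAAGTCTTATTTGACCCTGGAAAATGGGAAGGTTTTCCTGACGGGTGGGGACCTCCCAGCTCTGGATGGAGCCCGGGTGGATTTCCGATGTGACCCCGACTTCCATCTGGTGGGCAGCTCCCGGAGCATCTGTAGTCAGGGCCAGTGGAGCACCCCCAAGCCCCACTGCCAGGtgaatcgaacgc
Gabbr1-205, end of the annotated reading frame: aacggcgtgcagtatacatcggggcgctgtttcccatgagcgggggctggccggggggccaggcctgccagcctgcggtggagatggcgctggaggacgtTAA

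Dlgap1 has 20 annotated transcripts, 11 of them coding. The listed ENSMUST00000133983 (Dlgap1-207, chr17:69969073-70821413, plus strand) encodes 982 codons and is a long form of the scaffold. Its first coding exon has 975 bases and is shared with 4 of the other 10 coding isoforms. Shorter isoforms such as Dlgap1-211 begin downstream with a first coding stretch of 75 bases. The coding sequence of Dlgap1-207 is identical to that of Dlgap1-201, and those models differ only in untranslated exons, so no coding sequence tells them apart. An exon of 30 bases at chr17:70718196-70718225, present in 6 of the other coding isoforms, is absent from the listed one. The first 150 coding bases of the long form (chr17:70516022-70516171) and the first coding stretch of a short form (chr17:70522188-70522262) are shown with the start codon in capitals, and the exon of 30 bases in capitals between its neighbours.
Dlgap1-207, start of the long form: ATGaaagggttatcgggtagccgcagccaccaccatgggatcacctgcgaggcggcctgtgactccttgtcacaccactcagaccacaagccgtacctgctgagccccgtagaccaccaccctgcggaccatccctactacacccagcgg
Dlgap1-211, start of a short form: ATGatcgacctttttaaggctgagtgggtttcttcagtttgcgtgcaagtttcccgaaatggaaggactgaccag
Dlgap1-214, exon absent from the listed isoform: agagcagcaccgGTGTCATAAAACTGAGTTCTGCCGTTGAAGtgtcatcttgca

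**Figure D1:**
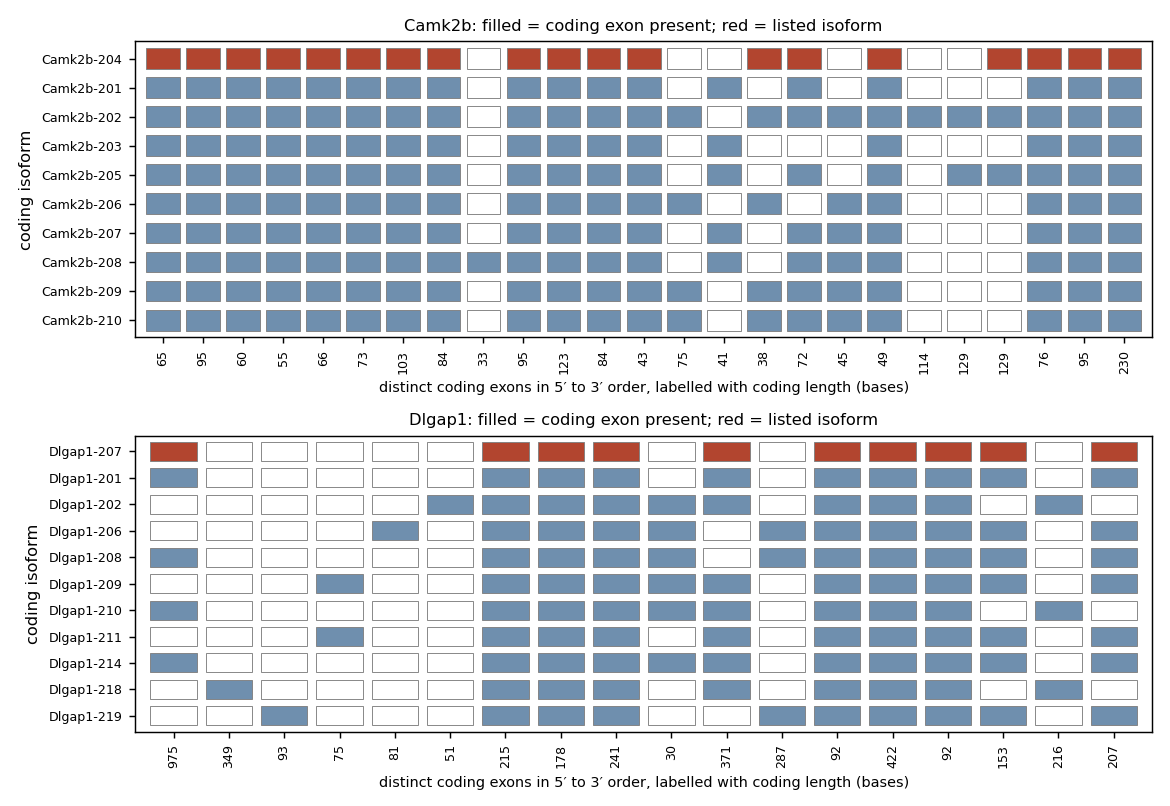
Coding exons of the protein-coding isoforms of Camk2b (top) and Dlgap1 (bottom), one row per isoform and one column per distinct coding exon in 5′ to 3′ order, labelled with its length in bases (exons with alternative ends count as separate columns). Filled boxes mark exons that are present and red marks the listed isoform: Camk2b-204 has the second exon of 129 bases and lacks those of 75 and 45, and Dlgap1-207 starts with the exon of 975 bases.

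The Grik4 locus is represented by the merged model MERGE.26017.4 (chr9:42518203-42854380, minus strand). Its exons are not given in the deposited table, so no sequence is shown for it. The model starts between the annotated starts, 45681 bases upstream of Grik4-201 and 90113 bases downstream of Grik4-202. Its span contains all 19 coding exons of both annotated isoforms, which share a coding sequence of 956 codons.

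The targeted gene was read first. The annotated Jade2 transcript ENSMUST00000109091 was listed at 0 in every knockout library and at 1.41 to 5.05 FPKM (fragments scaled to transcript length and to the mapped total) in the controls. A merged model of the locus, MERGE.3721.1, stood at 3.59 to 12.3 FPKM in the knockouts and was listed at 0 in the controls, so the locus was not silent in the libraries labelled knockout. The unit is not named in the table and is taken from the tool Cuffdiff. No counts were given, so depth and counting error are unknown. The median of the listed transcripts was between 0.773 and 0.900 FPKM in each library. Of 12 markers of hippocampal neurons, 2 (Zbtb20 and Prox1) had a listed model, and these summed to 1.20 to 13.6 FPKM in the knockouts and 10.6 to 23.0 in the controls. Listed transcripts of other cell types were 1 of 6 astrocyte genes (2.41 to 9.29 FPKM against 0.0276 to 2.30 in the controls), 1 of 6 oligodendrocyte genes (0.619 to 2.42 against 2.53 to 2.97) and 1 of 6 microglial genes (0.0140 to 1.57 against 1.19 to 21.3). There were also 2 of 6 endothelial and mural genes (6.61 to 9.27 against 1.48 to 4.51), 1 of 5 thalamic genes (7.66 to 30.3 against 4.54 to 6.57), 0 of 6 interneuron genes and 0 of 5 choroid plexus genes. The astrocyte entry was a merged model named by its position at Agt. The thalamic entry (Prkcd) and a mural entry (Tagln) were transcripts annotated as retaining an intron. These values are therefore not gene levels. Markers outside the table were not analysed here, and the part of these cell types in the values below was not tested. In bulk tissue, fewer cells of a type and less RNA per cell cannot be told apart.

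Of the 5 member transcripts, 3 (Camk2b, Prkacb and Gabbr1) had higher mean levels in the knockout and 2 (Grik4 and Dlgap1) had lower ones. Among all 104721 transcripts, 0.778% were listed as higher and 0.825% as lower. The knockout and control values of Camk2b and Gabbr1 did not overlap, while those of the other 3 did. Over all listed transcripts, 36.1% have groups that do not overlap, and in 19.7% all knockouts lie above all controls, so 2 of 5 members is close to that background. None of the members reached an adjusted p of 0.05. Each has an adjusted p of 0.888 in the authors' deposited table, a value shared by 1548 of the listed transcripts, and 0.893% of listed transcripts have an adjusted p under 0.05.

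**Figure D2:**
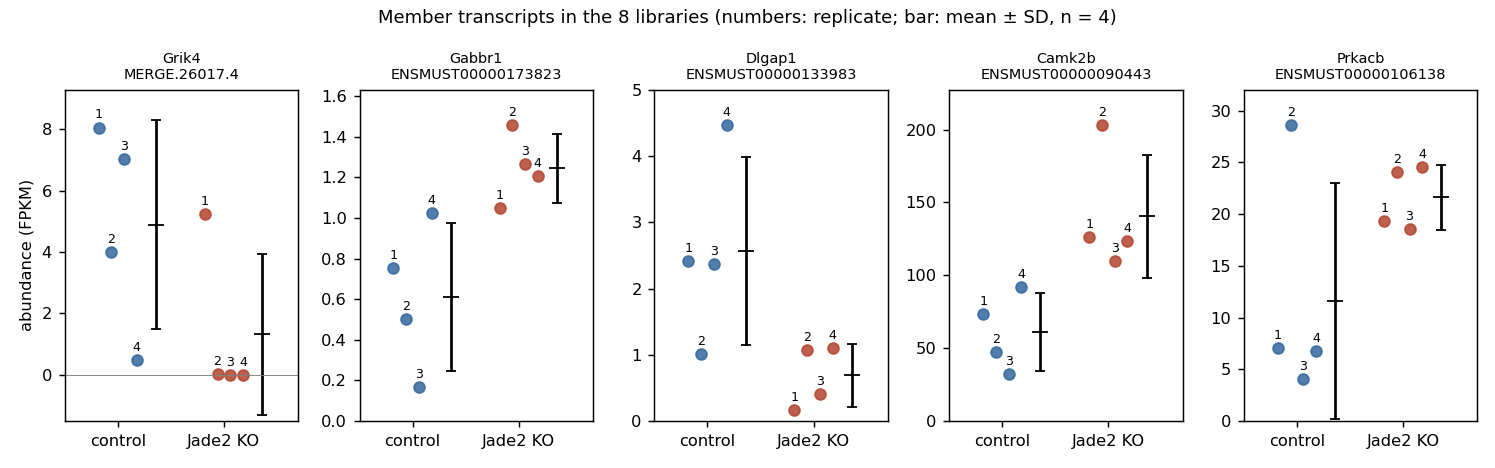
Abundance in FPKM (linear axes, one panel per transcript) of the 5 member transcripts in the 4 control (blue) and 4 Jade2-knockout (red) libraries, numbered by replicate, with the mean ± SD beside each group. The groups are separate for Gabbr1 and Camk2b, knockout 1 stands apart for Grik4 at 5.24 FPKM, and control 2 stands apart for Prkacb at 28.6 FPKM.

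Among the receptor subunits, Grik4 encodes GluK4, a high-affinity kainate receptor subunit that in the hippocampus is best known from CA3 pyramidal neurons. The model MERGE.26017.4 stood at 8.05, 3.99, 7.02 and 0.492 FPKM in controls 1 to 4. In knockouts 1 to 4 it stood at 5.24, 0.0138, 0 and 0 FPKM. Thus 3 of 4 knockouts lay below the lowest control, while knockout 1 lay above controls 2 and 4. The mean was 1.31 ± 2.62 FPKM over the 4 knockouts and 4.89 ± 3.40 over the 4 controls (SD), a level 3.72-fold lower in the knockouts. Without knockout 1 the knockout mean was 0.00460 FPKM and the groups no longer overlapped. The log2 fold change in the authors' deposited table is -7.59, with an unadjusted p of 0.0246. On the log2(FPKM + 0.5) scale, which damps differences of low values, the difference was -2.15 (SE 1.13). An exact 0 in such a table can be a failed estimate or reads assigned to another model of the locus.

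Gabbr1 encodes the subunit of the GABA-B receptor that binds GABA. The decay-class transcript Gabbr1-205, whose lengthened exon and early stop are shown above, was scarce in all libraries. Controls 1 to 4 gave 0.754, 0.504, 0.168 and 1.02 FPKM, and knockouts 1 to 4 gave 1.05, 1.46, 1.27 and 1.20. Every knockout lay above every control, but the gap between the lowest knockout (1.05) and the highest control (1.02) was narrow. The means were 1.25 ± 0.170 FPKM in knockouts and 0.612 ± 0.364 in controls (SD, n = 4 each), a ratio of 2.03. Spread relative to the mean was smaller in the knockouts, with a coefficient of variation of 13.6% against 59.5%. Over all listed transcripts the median coefficient was 56.0% in the knockouts and 54.9% in the controls. A difference in spread was not tested. The authors' deposited table gives a log2 fold change of 1.24 and an unadjusted p of 0.0407, the largest p of the members. Levels of the coding isoforms of Gabbr1 were not analysed here.

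The scaffold transcript Dlgap1-207, which carries the long first coding exon, was lower on average in the knockouts. It stood at 2.42, 1.01, 2.38 and 4.47 FPKM in controls 1 to 4, and at 0.168, 1.08, 0.411 and 1.10 in knockouts 1 to 4. Control 2 sat among the knockouts, below knockouts 2 and 4, whereas the other 3 controls lay above all knockouts. Over 4 libraries each, knockouts averaged 0.689 ± 0.472 FPKM and controls 2.57 ± 1.42 (SD), so the mean was 3.73-fold lower in the knockouts. The authors' deposited table gives a log2 fold change of -2.11 with an unadjusted p of 0.0158. Among listed transcripts that were lower in the knockout, 31.9% have groups that do not overlap. Dlgap1-201 has the same coding sequence, so the division of reads between those models bears on this value and was not tested. The annotation also places 2 genes on the opposite strand within the Dlgap1 locus.

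Camk2b encodes the beta subunit of CaMKII. The isoform Camk2b-204, which lacks the exons of 75 and 45 bases shown above, was the most abundant member, with a mean of 101 FPKM over the 8 libraries, 5th among the 1679 listed transcripts. Controls 1 to 4 gave 73.2, 47.5, 32.2 and 92.1 FPKM, and knockouts 1 to 4 gave 126, 203, 109 and 124. All 4 knockouts exceeded the highest control, and knockout 2 was well above the other 3. The knockout mean was 141 ± 42.3 FPKM and the control mean 61.3 ± 26.7 (SD, n = 4 each), a ratio of 2.29. Among listed transcripts that were higher in the knockout, 40.5% have groups that do not overlap. The log2 fold change in the authors' deposited table is 1.32 with an unadjusted p of 0.00455, the smallest of the members.

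A further listed model lies within the Camk2b locus on the opposite strand and shows the opposite direction. MERGE.3363.3 (chr11:6005403-6011665, plus strand) had 1.74 to 2.32 FPKM in the controls and 0 to 0.416 in the knockouts, with no overlap. It overlaps none of the exons of Camk2b-204 and touches an exon of 1 noncoding Camk2b transcript, Camk2b-212. The sources used here do not say whether quantification used strand, so reads of opposite strands cannot be told apart.

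Prkacb-204, the protein kinase A isoform with the 10-base first coding stretch, was even across the knockouts and uneven across the controls. Knockouts 1 to 4 gave 19.3, 24.1, 18.5 and 24.5 FPKM. Controls 1 to 4 gave 7.03, 28.6, 4.06 and 6.76. Control 2 was the highest of all 8 libraries, while the other 3 controls lay below every knockout. The means were 21.6 ± 3.14 FPKM in the knockouts and 11.6 ± 11.4 in the controls (SD, n = 4 each), a ratio of 1.86. Without control 2 the control mean was 5.95 ± 1.65 FPKM (SD, n = 3), and the ratio became 3.63. In the authors' deposited table the log2 fold change is 1.30 and the unadjusted p 0.0362. The annotation places 1 gene on the opposite strand within the Prkacb locus.

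Control 2 was also the library that brought the groups of Dlgap1 together. Without it, 4 of 5 members had groups that did not overlap, namely Gabbr1, Dlgap1, Camk2b and Prkacb, and without knockout 1 there were 3, with Grik4 in addition to Gabbr1 and Camk2b. The same omissions raised the share among all listed transcripts to 47.1% and 47.3%. Leaving out any other library raised it too, to between 44.6% and 47.1%. The ratio of control to knockout means for Dlgap1 was 4.48 without control 2.

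**Figure D3:**
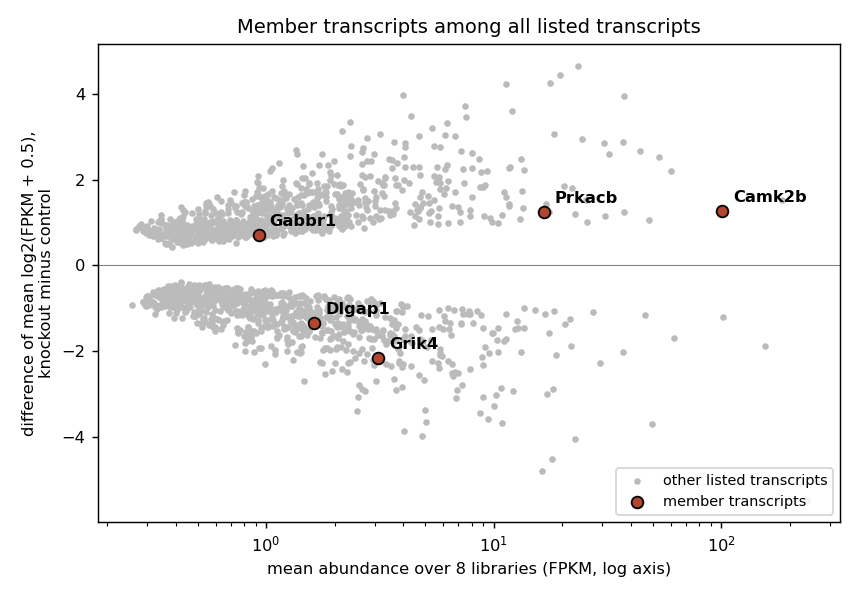
Difference of mean log2(FPKM + 0.5), knockout minus control, against mean abundance over the 8 libraries (FPKM, log axis) for all 1679 listed transcripts (grey) and the 5 members (red). The band around 0 is empty because the table was selected on fold change. Camk2b lies at the far right with a mean of 101 FPKM, and the members' differences run from -2.15 for Grik4 to 1.26 for Camk2b.

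The sizes of the members' differences were set against the rest of the table. On the log2(FPKM + 0.5) scale the median absolute difference of listed transcripts was 1.06. The members' differences were -2.15 for Grik4, -1.34 (SE 0.468) for Dlgap1, 0.71 (SE 0.265) for Gabbr1, 1.25 (SE 0.586) for Prkacb and 1.26 (SE 0.387) for Camk2b. By absolute size Grik4 stood at the 91.4th percentile of the listed transcripts and Gabbr1 at the 16.0th. Dlgap1, Camk2b and Prkacb lay between them, at percentiles 67.2, 63.4 and 63.0. The median over the members was 0.71, against -0.51 over all listed transcripts, a sign that turns on which 5 transcripts were chosen.

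Levels within a group were compared next, after the group means had been subtracted. Deviations of log2(FPKM + 0.5) were taken over the 8 libraries, which share their controls and knockouts across members. Camk2b and Gabbr1 deviated most alike of the 10 pairs, with a Pearson r of 0.915 and a Spearman rho of 0.762, given as a description. The order of the controls was the same for both transcripts, with control 4 highest, then 1, 2 and 3, and knockout 2 was the highest knockout for both. Leaving out knockout 2 and control 4, the 2 libraries whose Camk2b deviations lay farthest from the median deviation, gave an r of 0.902. Control 3, the lowest control for both transcripts, was kept. The other pairs ran from -0.675 for Grik4 with Dlgap1 to 0.543 for Dlgap1 with Camk2b, so the 5 transcripts did not vary together as a group.

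For each member with a mean of at least 1 FPKM, the 3 listed transcripts of other genes with the most similar deviations were looked up among 503. For Camk2b they were isoforms of Nlgn1 (r = 0.821), Cxadr (r = 0.821) and Otud5 (r = 0.817). For Prkacb they were isoforms of Sec22b (r = 0.981), Nkain2 (r = 0.958) and Zmym1 (r = 0.955). Dlgap1 was most like isoforms of Sorbs3 (r = 0.994), Ppp2r3c (r = 0.934) and Golga1 (r = 0.853), and Grik4 most like isoforms of Zfp579 (r = 0.905), Paip2b (r = 0.893) and Exosc4 (r = 0.890). These are the highest of many correlations over 8 libraries and are given as a description. Control 2 for Prkacb (28.6 FPKM) and knockout 1 for Grik4 (5.24 FPKM) stood apart from their groups. A single library can therefore weigh heavily in these values, and they were not recomputed without it. Of the 12, 3 differed between the groups in the direction opposite to their member in the authors' deposited table: Sec22b was lower in the knockout, and Sorbs3 and Ppp2r3c were higher.

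The wider pathway was described with 7 lists holding 128 genes. Beside the 5 members, 12 transcripts of 11 further genes were listed, 4 higher and 8 lower in the knockout. The groups of 4 of these 12 did not overlap, close to the 36.1% of all listed transcripts. Their median difference on the log2(FPKM + 0.5) scale was -0.68, against -0.51 over all listed transcripts. Of 803 annotated transcripts of the lists' other 123 genes, 6 were listed (0.747%), close to the 0.801% of all annotated transcripts. None of the 17 reached an adjusted p of 0.05 in the authors' deposited table.

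Ionotropic glutamate receptors and their auxiliary proteins had 4 listed transcripts, 0 higher and 4 lower. Over the whole table, 864 of 1679 listed transcripts were lower, and whether a run of 4 departs from that share was not tested. Beside Grik4 these were merged models at Neto1 and Neto2, which encode auxiliary subunits of kainate receptors, and an isoform of Cnih3, an auxiliary protein of AMPA receptors. The Neto2 model MERGE.24971.3 had 0, 3.70, 0 and 1.64 FPKM in knockouts 1 to 4 and 2.37, 4.16, 2.24 and 1.10 in controls 1 to 4, so the groups overlapped. The Neto1 model MERGE.12184.3 averaged 0.430 ± 0.404 FPKM over the knockouts against 1.43 ± 1.13 over the controls (SD, n = 4 each), also with overlap. Cnih3 ENSMUST00000162685 did not overlap, at 0.285 ± 0.0148 against 0.626 ± 0.210 FPKM. The list had 1 of 148 annotated transcripts listed, and 0 of 38 for metabotropic glutamate receptors.

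The GABA receptor list of 20 genes held 1 transcript that was higher in the knockout, that of Gabbr1, and 1 that was lower.

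The postsynaptic scaffold list had 4 higher and 2 lower transcripts. With Dlgap1, the lower ones included the Baiap2 model MERGE.5101.7, of an actin-regulating scaffold, at 17.0 ± 5.42 FPKM in knockouts against 37.7 ± 15.5 in controls (SD, n = 4 each). Begain ENSMUST00000185745, a noncoding transcript of the gene for a PSD-95-binding protein, was higher at 0.762 ± 0.243 against 0.319 ± 0.0619 FPKM, without overlap. Nlgn1 ENSMUST00000075054, of the adhesion protein neuroligin 1, was at 0.858, 6.17, 1.29 and 2.32 FPKM in knockouts 1 to 4 and at 2.10, 0, 0 and 0.900 in controls 1 to 4. The other higher ones were a second Nlgn1 model and, named after its values were seen, the Dlgap3 model MERGE.17659.4. That model of a Dlgap1 relative was at 0 in controls 1 and 2 but at 58.6 and 65.0 FPKM in controls 3 and 4, against 22.0 to 64.6 in the knockouts.

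Among the calcium-calmodulin kinase genes 1 further transcript was listed. The noncoding Camk2g ENSMUST00000224804 averaged 0.206 ± 0.254 FPKM in knockouts and 0.725 ± 0.148 in controls (SD, n = 4 each), without overlap and in the direction opposite to Camk2b. The cyclic AMP and protein kinase A list held, beside Prkacb, 2 transcripts that were lower in the knockout, both of proteins known to restrain the kinase. Pkig ENSMUST00000099105, of a protein kinase A inhibitor, had 1.78, 0.607, 0.364 and 0.338 FPKM in knockouts 1 to 4 and 5.89, 1.48, 6.11 and 1.08 in controls 1 to 4. The model MERGE.20027.5 of Prkar1b, a regulatory subunit, had 0.923, 0, 0 and 0 FPKM against 0.845, 0.150, 1.64 and 1.19. The groups overlapped for both, and a link with the higher Prkacb transcript was not tested. None of the 10 genes of the list of postsynaptic phosphatases and protein kinase C had a listed transcript. That list does not hold Prkcd, the protein kinase C gene counted above as the thalamic marker, which was listed.

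**Figure D4:**
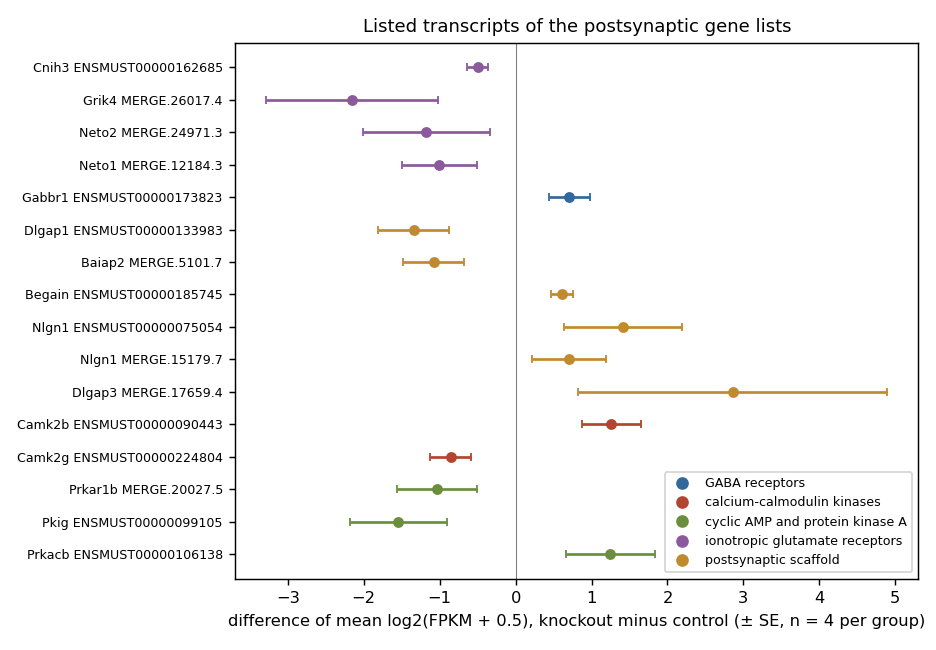
Difference of mean log2(FPKM + 0.5), knockout minus control, with its SE (n = 4 per group) for 16 of the 17 listed transcripts of the postsynaptic gene lists, coloured by list. All 4 ionotropic glutamate receptor transcripts lie left of 0, Gabbr1 lies right of 0, and the scaffold and both kinase lists have transcripts on both sides.

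Limma was run on the 849 listed transcripts averaging 1 FPKM or more, and 0 reached an adjusted p of 0.05 (0% called). The unadjusted p was under 0.05 for 599, a number that follows from the selection of the table. With no filter on abundance 7 of 1679 passed. On simulated data this fit missed all of the smaller changes and most of the larger ones, so its count of 0 says little.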

How the data were processed

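Hippocampal RNA of 4 control and 4 Jade2-knockout libraries was compared. Per the submitters' processing notes, HISAT2 and Cuffdiff were used on mm10; the sources used here do not give versions, annotation or strand setting. The authors deposited transcript abundances with no unit named, taken as FPKM, together with log2 fold changes and p-values whose test is not given. The table is selected on that p-value and fold change.

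The members and gene lists were chosen with earlier results of these data known. Means and SD are of deposited FPKM; differences are of log2(FPKM + 0.5). Limma 3.58.1 (R 4.3.3, variance trend, two-sided) was fitted to transcripts averaging 1 FPKM or more, with Benjamini-Hochberg adjustment over 104721 transcripts. Tested on simulated data, the fit recovered the sizes of known changes and made no false calls, but it called few of the changes. It failed the pass criterion first set, a minimum number of calls, and that criterion was relaxed after the failure to one on estimated sizes and false calls. Unnamed models were named by their locus or by a same-strand gene with at least 50% reciprocal overlap in GENCODE M21. Isoform structure and sequences come from GENCODE M21. Python 3.11.15, numpy 2.4.6, pandas 2.3.3 and matplotlib 3.10.9 did the rest.

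Named transcripts are the members, up to 4 per list (1 such transcript and 1 exon sequence are not reported here) with the smallest authors' p, and the 3 most similar transcripts per member. Alternatives were other pseudocounts, filters, equal library medians, a replicate block and each library left out. Same-numbered libraries did not deviate together (r from -0.0297 to 0.0357).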

Additional observations from a re-analysis of the deposited data

Results flagged for a closer look

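In 2 of 10 groups of 4 libraries, 1 library lay farther from its nearest neighbour, as a share of the group's range, than Dixon's 95% critical value. For normally distributed values, chance gives such a gap in about 1 in 20 groups. The gaps were taken on linear FPKM, where that share was not tested, so the 2 far libraries are given as a description. For Grik4 MERGE.26017.4 it was knockout 1, at 5.24 FPKM where the other 3 knockouts were between 0 and 0.0138, with a gap of 0.997 of the range. For Prkacb ENSMUST00000106138 it was control 2, at 28.6 FPKM where the other 3 controls were between 4.06 and 7.03, with a gap of 0.879. The knockouts of Camk2b came close, with knockout 2 at 203 FPKM and a gap of 0.823.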

How the results depend on the processing

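The 5 member differences kept their direction under all 11 alternatives each. The members come from a table selected on this contrast in the same libraries. A reversal was therefore unlikely from the outset, and the kept direction adds no support. A pseudocount of 0.1 moved Grik4 from -2.15 to -3.62 and Gabbr1 from 0.71 to 1.09. Leaving out single libraries gave -3.03 to -1.80 for Grik4, -1.64 to -1.07 for Dlgap1, 0.49 to 0.88 for Gabbr1, 0.91 to 1.80 for Prkacb and 0.99 to 1.49 for Camk2b. The number of members whose groups did not overlap was 2, and 2 to 4 with a library left out, the 4 without control 2; equal library medians left it at 2. Each of the 5 member loci had 1 listed transcript, so the planned sums over a locus were not made for them. Limma called 0 transcripts, 7 with no filter on abundance, 0 to 4 with a library left out (4 without control 2, 1 without control 1 or control 4), and 0 with a replicate block. The same-numbered libraries share only a number. Depth is unknown, so which zeros reflect few reads cannot be said.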
